A study of Mus musculus with 2 samples.

Results

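The miRNA family of miR-103 and miR-107 was represented by 3 of the 2202 miRNA genes in the count files: Mir103-1, Mir103-2 and Mir107. They were taken by gene name in the GENCODE M21 annotation, and all 3 lie inside genes for pantothenate kinases, the enzymes that start coenzyme A synthesis. Small RNA below 30 nt was sequenced from hippocampal tissue of aged female mice, 18 to 20 months old. The animals were of the strain B6CASTF1/J, first-generation hybrids of a laboratory B6 and a wild-derived CAST parent, with no treatment named. The 2 libraries, labelled biological replicates 2 and 1, formed 1 group. Their tissue records give animal numbers 7 and 6 but 1 shared donor record, so the spread between them may be partly technical. Which hippocampal layer was taken is not recorded, and there was no second age, sex or condition to compare.

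A miRNA gene yields a hairpin RNA that is cut to 2 mature arms, named 5p and 3p. A mature miRNA guides silencing of messenger RNAs mainly through its seed, bases 2 to 8. The family is conserved across vertebrates and widely expressed. In mice miR-103 and miR-107 are known for restraining insulin sensitivity, with caveolin-1 (Cav1) as a target. In human cells they target the miRNA-processing enzyme Dicer. In human cortex, lower miR-107 has been described in Alzheimer's disease, with the β-secretase BACE1 as a target.

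The hairpins are shown first because their sequences bear on which reads can be assigned to which gene. The mature arms are in capitals, the 5p arm first, read 5′ to 3′ (RefSeq, GRCm38.p6):
Mir103-1: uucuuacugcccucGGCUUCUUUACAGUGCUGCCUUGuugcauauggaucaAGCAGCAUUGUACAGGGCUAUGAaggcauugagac
Mir103-2: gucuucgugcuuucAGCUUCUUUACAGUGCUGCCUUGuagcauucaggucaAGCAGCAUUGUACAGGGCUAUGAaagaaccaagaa
Mir107: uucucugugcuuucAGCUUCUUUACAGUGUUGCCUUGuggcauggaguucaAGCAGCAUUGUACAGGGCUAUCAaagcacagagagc

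Mir103-1 (ENSMUSG00000065553.1) lies on the plus strand at chr11:35782396-35782481, in an intron of Pank3. Mir103-2 (ENSMUSG00000065563.1) lies on the plus strand at chr2:131288052-131288137, in an intron of Pank2. Mir107 (ENSMUSG00000065594.1) lies on the minus strand at chr19:34820687-34820773, in an intron of Pank1. Each hairpin runs on the strand of its host gene. In the principal transcript of each host, which has 7 exons, the hairpin sits in intron 5. That intron is 1740 bases long in Pank3, 5801 in Pank2 and 7282 in Pank1. No annotated exon of a host transcript overlaps a hairpin, and no gene other than the host overlaps one on either strand. The hairpins measure 86, 86 and 87 bases, so that their counts compare genes of nearly equal length.

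The 3p arms carry the family seed, here in capitals:
miR-103-3p: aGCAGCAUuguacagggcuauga
miR-107-3p: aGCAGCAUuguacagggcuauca
The arm miR-103-3p is the same 23 bases from Mir103-1 and Mir103-2. It differs from miR-107-3p by G22C, where positions count from 1 at the 5′ end, the first base is that of miR-103-3p and the second that of miR-107-3p. Among 1679 mature miRNA names in the RefSeq table, only these 2 have the seed GCAGCAU.

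The 5p arms share a seed of their own, GCUUCUU:
miR-103-1-5p: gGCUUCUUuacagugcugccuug
miR-103-2-5p: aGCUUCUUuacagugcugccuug
miR-107-5p: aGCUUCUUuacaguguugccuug
Between miR-103-1-5p and miR-103-2-5p the change is G1A, the first base alone. Between miR-103-2-5p and miR-107-5p it is C16U. These 3 were the only mature names in the table with that seed. Over their whole length the Mir103 hairpins were 80.2% identical, Mir103-1 and Mir107 80.5%, and Mir103-2 and Mir107 83.9%.

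For exact matches, which reads can be told apart follows from those letters. The longest stretch common to both Mir103 hairpins is 27 bases, ucaagcagcauuguacagggcuaugaa, which holds the whole miR-103-3p. A read that starts at the first base of miR-103-3p thus fits both Mir103 genes at up to 24 bases, and 1 gene only from 25 bases on. The same start in Mir107 fits all 3 genes at up to 21 bases and Mir107 alone from 22 bases on. The full miR-107-3p occurs in 1 annotated hairpin and the full miR-103-3p in 2. Reads that start at the first base of a 5p arm fit 1 hairpin already at 18 bases, the shortest length looked at. Of the 22-base windows of each hairpin, 92.4% of those of Mir107 occur in no other annotated hairpin, against 87.7% for Mir103-1 and 84.6% for Mir103-2. Sharing a window is common: 1081 of the 2202 hairpins (49.1%) do so. The search covered annotated hairpins and not the whole genome.

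**Figure D1:**
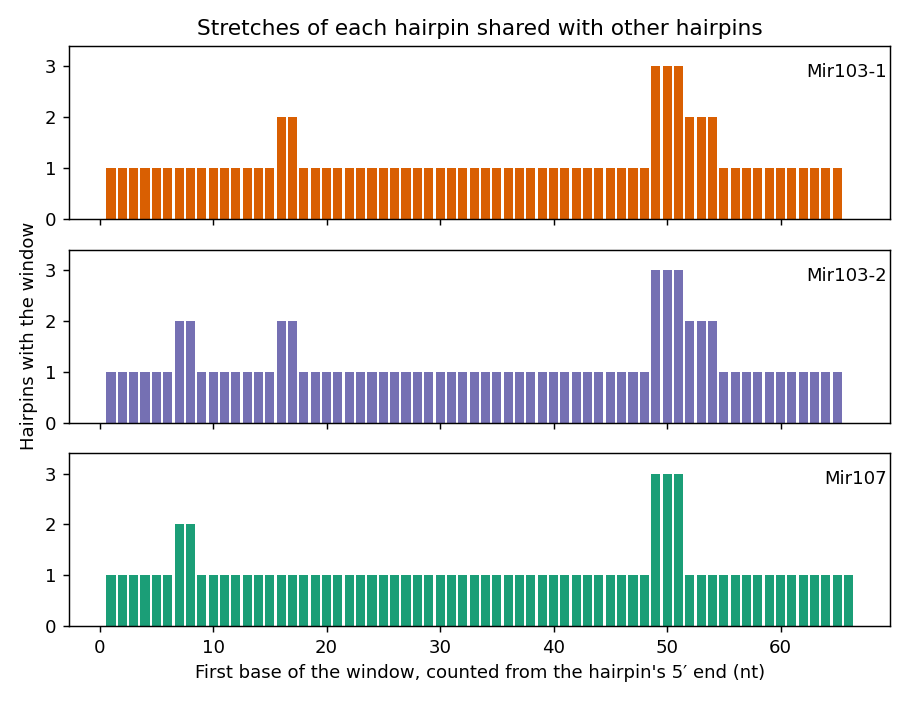
Number of annotated hairpins (vertical axis) that hold each 22-base window of Mir103-1, Mir103-2 and Mir107, by the window's first base in nt from the hairpin's 5′ end; 1 means found in that hairpin alone. Windows that start 1 to 3 bases before the 3p arm stand at 3 hairpins in every panel, those that start at its first 3 bases stand at 2 in the Mir103 genes, and 92.4% of the Mir107 windows stand at 1.

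The deposited counts separate reads that fit several places into a total of their own, which is not split by gene. That total was 47.9% of all reads in replicate 2 and 36.2% in replicate 1, which for each counted read was 1.29 such reads in replicate 2 against 1.20 in replicate 1. How many of those reads were miR-103-3p was not tested. The counts below are sense-strand reads assigned to a gene, and a count does not say which arm it came from. Replicate 2 held 4521208 such counts and replicate 1 held 2255838. Levels are counts divided by that sum and multiplied by 1000000 (CPM). Intervals on them are exact 95% Poisson intervals, which cover counting error only, as do the limits for a count of 0, since PCR reads are not independent molecules.

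Mir107 carried almost all counts of the family, Mir103-2 was low and Mir103-1 was close to the detection limit. Mir107 had 9302 counts in replicate 2, equal to 2057 CPM (2016 to 2100), against 6200 counts in replicate 1, equal to 2748 CPM (2680 to 2818). It ranked 62nd of all genes in replicate 2 and 60th in replicate 1. Its mean was 2403 ± 489 CPM (SD, n = 2). The intervals of the libraries do not overlap, replicate 2 being the lower. In bulk tissue, fewer cells of a type and less RNA per cell cannot be told apart.

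Mir103-2 had 61 counts in replicate 2, equal to 13.5 CPM (10.3 to 17.3), against 44 counts in replicate 1, equal to 19.5 CPM (14.2 to 26.2). It ranked 291st in replicate 2 and 279th in replicate 1, with a mean of 16.5 ± 4.25 CPM (SD, n = 2). The intervals of both libraries overlap for this gene, and both lie far below those of Mir107.

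Mir103-1 had 4 counts in replicate 2, equal to 0.885 CPM (0.241 to 2.27), against 5 counts in replicate 1, equal to 2.22 CPM (0.720 to 5.17). Its mean was 1.55 ± 0.942 CPM (SD, n = 2). The limit for a count of 0, taken as 3 counts, was 0.664 CPM in replicate 2 and 1.33 CPM in replicate 1. This gene stood just above that limit in both libraries. All 3 genes passed the filter of a mean of 1 CPM, although Mir103-1 was below 1 CPM in replicate 2.

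**Figure D2:**
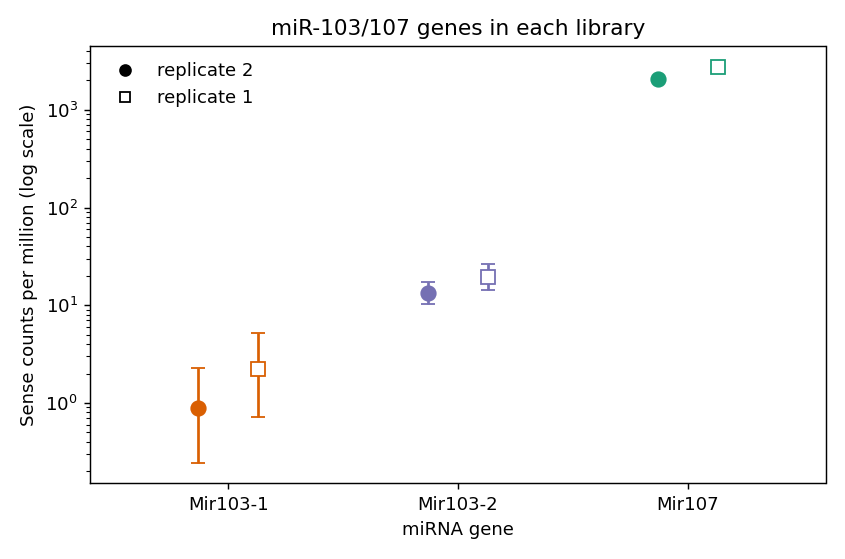
Sense-strand CPM (log axis) of Mir103-1, Mir103-2 and Mir107 in replicate 2 (filled circles) and replicate 1 (open squares), with exact 95% Poisson intervals. Mir107 stands at 2057 and 2748 CPM, Mir103-2 between 13.5 and 19.5 CPM, and Mir103-1 between 0.885 and 2.22 CPM.

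The order Mir107, Mir103-2, Mir103-1 was the same in both libraries, and no interval of a gene overlapped that of its neighbour in the same library. With 2 libraries, an exact permutation test between any pair of genes cannot go below p = 0.333, even when their pairing by library is ignored. Keeping that pairing leaves fewer arrangements still, so that this order has no replicated test. Together the 3 genes took 0.207% of all counts in replicate 2 and 0.277% in replicate 1. Mir107 made up 99.3% of the family counts in replicate 2 (exact 95% binomial interval 99.1 to 99.5) and 99.2% in replicate 1 (99.0 to 99.4). It exceeded both Mir103 genes together 143-fold in replicate 2 and 127-fold in replicate 1. These ratios are of reads assigned to a gene and not of mature miR-107 to mature miR-103, because the whole miR-103-3p fits both Mir103 genes.

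The Mir103 copies were unequal. Mir103-2 held 61 of 65 counts of the pair in replicate 2, or 93.8% (exact 95% binomial interval 85.0 to 98.3), and 44 of 49 in replicate 1, or 89.8% (77.8 to 96.6). Both intervals lie above an even split. Reads that fit both copies are not split by gene in the deposited files, so the shares need not hold for the transcripts of Pank2 and Pank3 or for mature miR-103.

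The make-up of the family did not differ detectably between the libraries at this depth. For Mir107 against the Mir103 genes, a two-sided Fisher's exact test on the counts gave p = 0.565. For Mir103-2 against Mir103-1 the same exact test gave p = 0.495, and both were 0.565 after Benjamini-Hochberg adjustment over these 2 comparisons. The tests compare the reads of these libraries, and that of the Mir103 genes rests on 4 counts of Mir103-1 in replicate 2 and 5 in replicate 1.

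All 3 genes had lower levels in replicate 2, and none was called. Mir107 stood at 0.749 times its replicate 1 level in replicate 2 (95% interval 0.725 to 0.773), a log2 ratio of -0.42. Mir103-2 stood at 0.692 times (0.462 to 1.04), a log2 ratio of -0.54 with 0.5 counts added. Mir103-1 stood at 0.399 times (0.0792 to 1.85), with a log2 ratio of -1.29, an interval that spans both directions.

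By the exact binomial test with Benjamini-Hochberg adjustment over 495 genes, 0 of the 3 were called at an adjusted p under 0.05 and 2-fold or more. Over all tested genes 17.6% were called, 3.84% higher and 13.7% lower in replicate 2. That is 19 genes higher and 68 lower, a split that was 27 to 48 with DESeq2's size factors. By the same exact test at the adjusted p alone, 53.5% of all tested genes passed, 33.3% in the lower direction, and the error in that test is counting error only. Mir107 was among them (adjusted p = 1.73e-67), whereas Mir103-2 (0.110) and Mir103-1 (0.265) were not. When the spread between the libraries served as the error (edgeR's exactTest, common coefficient of variation 39.9%), the adjusted p of each member was 1. That error was estimated from the same differences between 1 library and 1 library, so this p is no evidence on the members. By that test 3 of 495 genes passed after adjustment and 26 at an unadjusted p under 0.05.

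The median log2 ratio over all tested genes was -0.19, and 61.4% of genes lay below 0. The size of the Mir107 difference exceeded that of 43.0% of the tested genes. For Mir103-2 that share was 52.3%, and for Mir103-1, on its few counts, 84.4%. Another scaling moves the median of all genes by 0.11 (edgeR's TMM) or 0.18 (DESeq2's size factors). Relative to the median under the gene sum, Mir107 stood at -0.23, Mir103-2 at -0.35 and Mir103-1 at -1.10. A scaling moves every gene alike, so it leaves these distances nearly as they are.

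**Figure D3:**
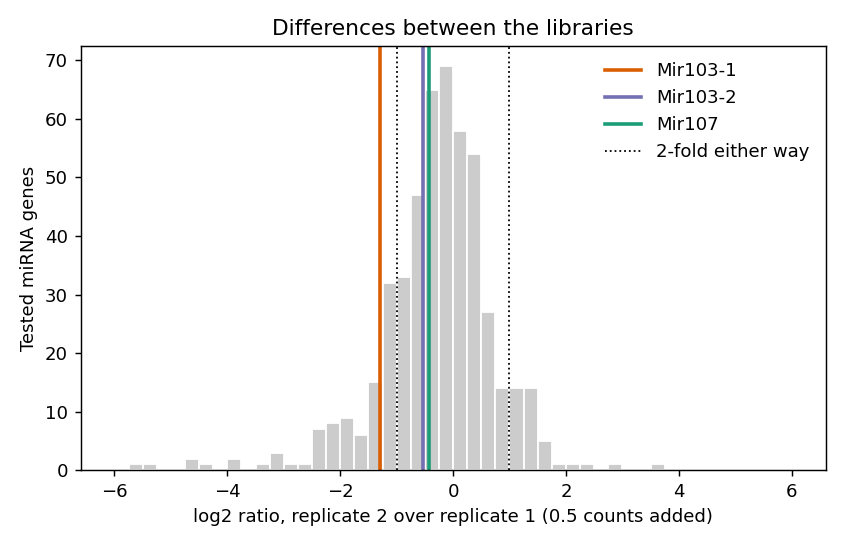
Distribution of log2 ratios (replicate 2 over replicate 1, 0.5 counts added) over 495 tested miRNA genes, with Mir103-1, Mir103-2 and Mir107 as vertical lines and the 2-fold bounds dotted. Mir107 at -0.42 and Mir103-2 at -0.54 lie within the bulk, and Mir103-1 at -1.29 lies outside the lower bound on 4 counts in replicate 2 and 5 in replicate 1.

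The libraries also differed in other ways beside these ratios. Unmapped reads made up 11.2% of replicate 2 and 29.0% of replicate 1. Of 10 choroid plexus and ependyma markers, 6 were called lower in replicate 2 and 0 higher, where 13.7% of all tested genes were called lower, with a summed level of 1476 CPM in replicate 2 against 3306 CPM in replicate 1. None of the 10 lacked counts. The called genes were neighbours in pairs: Mir34b and Mir34c on chromosome 9, Mir200a and Mir429 on chromosome 4, Mir141 and Mir200c on chromosome 6. Mir34c alone stood at 366 CPM in replicate 2 against 1597 CPM in replicate 1. Mir204 (800 against 1034 CPM) and Mir211, on 4 counts in each library, were not called. Mir200b and Mir449a were slightly higher in replicate 2, at 85.4 against 78.5 CPM and 63.9 against 55.4 CPM. Of the 9 neuron markers 7 were tested, with 1 called lower and 0 higher and a median log2 ratio of 0.24. The called gene was Mir132, an activity-induced miRNA and the most abundant of the list, at 18329 CPM in replicate 2 against 38949 CPM in replicate 1. The 3 Mir124a genes, whose miRNA defines neurons, stood near 0, with 0 to 13 counts per library. The liver miRNA Mir122 was at 43.1 CPM in replicate 2 against 14.6 CPM in replicate 1, and 4 of the 5 muscle markers had no count. Reads that fit several places are not in these counts. Counts near 0 for genes in several copies, such as the Mir124a genes and those 4 muscle markers, thus do not show absence of their miRNAs. The part of read fate or of cell content in the lower Mir107 level of replicate 2 was not tested.

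Mir103-1 and Mir103-2 were set beside other miRNA genes that exist in 2 copies with the same name. The files hold 43 such pairs, and 22 of them had 20 or more counts. By summed level the Mir103 pair ranked 21st of the 22, at 14.4 CPM in replicate 2 against 21.7 CPM in replicate 1. The median pair stood at 361 CPM. By mean summed level, the 5 highest pairs were Mir128 (15221 CPM), Mir138 (4769 CPM), Mirlet7f (4533 CPM), Mir219a (2670 CPM) and Mir129 (1617 CPM). Of these, Mir128 and Mir138 are known from neurons, and Mir219a from oligodendrocytes.

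In 20 of the 21 pairs with RefSeq entries for both copies, at least 1 mature arm was identical between the entries matched by position. The exception was Mirlet7a, whose copies still share a stretch of 23 bases, so its missing match may lie in the entries. The 27-base stretch shared by the Mir103 copies is on the long side, with a range of 22 to 30 and a median of 24 bases. Of the 4 other pairs that share 27 bases or more, 3 had a higher summed level than Mir103. Across the 22 pairs, Spearman's rho between the shared stretch and the summed level was -0.39. The points share libraries and depth, and the value is a description. The share of the larger copy was taken in each library and averaged over both. Its median was 83.6% of a pair's counts, with a range of 58.0% to 100%, and 91.8% in the Mir103 pair. In Mir125b, which gave the lowest share, and in Mir26a, the larger copy was not the same gene in both libraries.

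**Figure D4:**
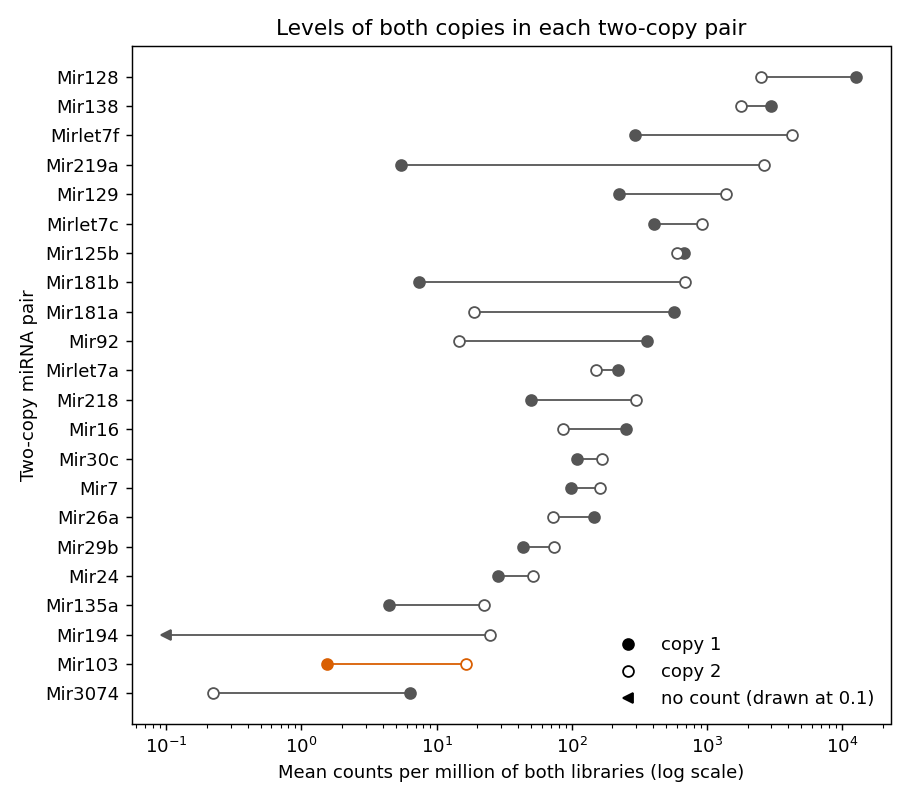
Mean CPM over both libraries (log axis) of copy 1 (filled) and copy 2 (open) in the 22 miRNA pairs, sorted by summed level; a triangle marks a copy with no count. The Mir103 pair, coloured, ranks 21st, with Mir103-2 at 16.5 CPM and Mir103-1 at 1.55 CPM.

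The list of seed relatives held 10 genes for miR-15, miR-16, miR-195, miR-322, miR-497 and miR-503, a group known for restraining cell cycle genes. Most of them have the seed AGCAGCA, the letters with which the 3p arms of the family begin, shifted by 1 base, as the capitals show:
miR-107-3p: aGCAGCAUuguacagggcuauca
miR-15a-5p: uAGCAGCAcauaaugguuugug
miR-16-5p: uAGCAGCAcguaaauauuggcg
miR-195a-5p: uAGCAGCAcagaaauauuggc
In 8 of 9 relatives with such an arm in RefSeq, bases 2 to 8 equal bases 1 to 7 of miR-107-3p. For the other, Mir503, they do not. In RefSeq the seed AGCAGCA also occurs in miR-6342, miR-6353 and miR-6419, whose genes were not on the list.

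Of the 10 listed genes 8 were tested, 1 was called higher in replicate 2 and 0 lower, where 17.6% of all tested genes were called, and 2 of the 8 had a log2 ratio below 0. Their median log2 ratio was 0.37, against -0.19 over all tested genes. Mir195a was the called gene, at 12419 CPM in replicate 2 against 2268 CPM in replicate 1, a ratio of 5.48. Mir15a averaged 1155 ± 231 CPM (SD, n = 2) and Mir497 854 ± 212 CPM. Of the rest, Mir322 averaged 517 CPM, Mir16-1 253 CPM, Mir15b 232 CPM, Mir16-2 86.9 CPM and Mir503 10.3 CPM. Mir195b had 3 counts in replicate 2 and 1 in replicate 1, and Mir497b, which lies opposite Mir497, had none on its own strand. In replicate 1 Mir107 was higher than any of these relatives, and in replicate 2 it was second to Mir195a. These ranks are of reads assigned to a gene. Mir16-1 and Mir16-2 give the same miR-16-5p, and reads that fit both are not in their counts.

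**Figure D5:**
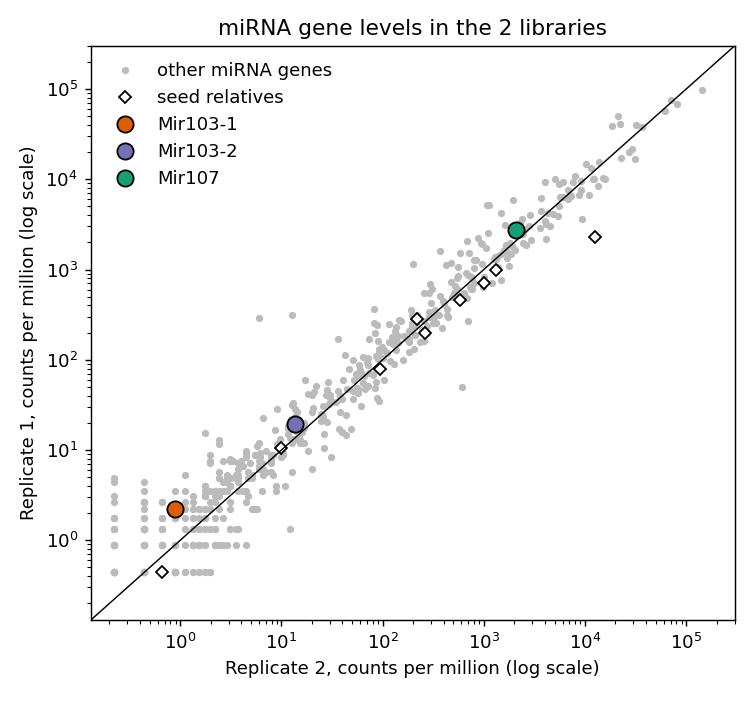
Level of each miRNA gene with a count in both libraries, replicate 2 on the horizontal axis and replicate 1 on the vertical axis, both in CPM on log axes, with the line of equality. The miR-103 and miR-107 genes (coloured) lie above the line, and the seed relative farthest below it is Mir195a at 12419 CPM in replicate 2, against 2268 CPM in replicate 1.

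Of 11 miRNAs known for roles in glucose or lipid metabolism, 10 were tested, with 1 called higher and 1 lower in replicate 2. That share is near the 17.6% called over all tested genes. Their median log2 ratio was 0.08. Nearest in level to Mir107 was Mir27b, at a mean of 2486 ± 27.2 CPM (SD, n = 2). Mir378a, in an intron of the gene for the metabolic coactivator PGC-1β, averaged 3221 ± 517 CPM. Mir33, in an intron of the sterol regulator gene Srebf2, averaged 15.1 ± 5.03 CPM, near Mir103-2. The called genes were Mir122, higher in replicate 2, and Mir370, lower at 677 CPM in replicate 2 against 2089 CPM in replicate 1. Mir375, known from pancreatic islets, was at 308 CPM in replicate 2 against 613 CPM in replicate 1 and fell just short of 2-fold. Mir143 averaged 8305 CPM, Mir335 3736 CPM, Mir34a 518 CPM and Mir27a 173 CPM. Mir802 had no count. By mean level, 4 of these 11 genes stood above Mir107 and the rest below it. Mir27b was above Mir107 in replicate 2 (2467 against 2057 CPM) but below it in replicate 1 (2505 against 2748 CPM).

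Of 9 other miRNAs that have been linked to BACE1, all were tested, with Mir195a called higher and Mir298 lower in replicate 2. Set beside the 17.6% called over all tested genes, this count is no result about the list. Their median log2 ratio was 0.22. Mir29a stood at 31007 CPM in replicate 2 against 16557 CPM in replicate 1. Mir328 stood at 10262 CPM in replicate 2 against 14837 CPM in replicate 1. Both exceeded Mir107 in both libraries. Mir298 was at 259 CPM in replicate 2 against 555 CPM in replicate 1. Of the rest, Mir186 averaged 255 CPM, Mir339 254 CPM, Mir188 229 CPM, Mir29b-2 73.5 CPM and Mir29b-1 43.9 CPM. By counted reads, Mir107 thus stood between the abundant pair Mir29a and Mir328 and the rest of this list, apart from Mir195a. Mir29b-1 and Mir29b-2 share an identical mature arm, and reads that fit both are not in their counts. BACE1 itself was not measured.

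The genes nearest to each member in level were found by Euclidean distance in log2(CPM + 1) over the 2 libraries, which describes level only. For Mir107 they were Mir485 (distance 0.098, 2114 CPM in replicate 2 against 2924 CPM in replicate 1), Mir320 (0.16) and Mir676 (0.28). For Mir103-2 they were Mir494 (0.13), Mir33 (0.22) and Mir7019 (0.23). For Mir103-1 they were Mir7026 (0.16), Mir211 (0.21) and Mir466n (0.21), each with 4 or 5 counts per library. At such counts, likeness in level says little.

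Strand did not affect the members. Their unstranded counts equalled their sense counts in both libraries, and antisense counts were 0 for each. That is unlike Mir378a and Mir497, which read 0 in the unstranded column and lie opposite another miRNA gene.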

How the data were processed

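The authors deposited a table of raw counts for each library, with unstranded, sense and antisense columns per miRNA gene below the rows of totals. Reads were assigned on mm10 with GENCODE M21, per the README files deposited beside them. Sources used here do not give the aligner or the counter. The column order was read from the values. All 2202 genes were named from GENCODE M21. Rows of totals that name no gene stayed out of library sizes: in replicate 2 unmapped, multimapping and unassigned reads were 11.2%, 47.9% and 3.72% of all reads, and in replicate 1 29.0%, 36.2% and 4.68%. The libraries differed beyond Poisson sampling (chi-square over degrees of freedom 386) and were not duplicates.

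Sense counts were scaled to CPM on the gene sum. The 495 genes that averaged at least 1 CPM went into an exact binomial test, two-sided (scipy 1.17.1), with Benjamini-Hochberg adjustment. It was run on simulated data with counting error only. That simulation does not show how the test behaves on the wider differences between these libraries. This comparison and alternatives with edgeR 4.0.16 and DESeq2 1.42.0 use 1 library each. A quasi-likelihood fit has no residual degrees of freedom here. Sequences came from RefSeq (GRCm38.p6) for all 3 members. Shared windows were sought among GENCODE hairpins. The CAST alleles were not examined.

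Members and lists were chosen with earlier results of these data known. Named genes were the members, every gene of 3 lists (seed relatives, metabolic, BACE1-linked), the 3 genes nearest in level to each member, the 5 highest pairs and overlapping genes. Of the marker lists, those of neurons, oligodendrocytes, vessels, microglia with leukocytes, and erythroid cells had counts for every gene. In replicate 2 they summed to 52248, 5395, 38353, 1682 and 119.9 CPM in that order, and in replicate 1 to 67091, 6829, 29696, 1694 and 122.4 CPM. The neuron sum follows Mir132, while the list's median log2 ratio was 0.24. In the erythroid list Mir144 was called higher in replicate 2 (2.83-fold). Its other gene, Mir451a, was lower there, at 71.0 CPM against 105 CPM in replicate 1, and was not called.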

Additional observations from a re-analysis of the deposited data

How the results depend on the processing

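No paired analysis was possible because the series has 1 group. Of 92 values under alternatives, 78 kept their call or stayed within the spread, and 0 reversed. With 2 libraries, a level, share or list sum from 1 library alone always lies within the SD of their mean. For those values no other outcome was possible. The members' unstranded shares were fixed as well, because their unstranded counts equalled their sense counts. The tally is thus no measure of how robust the results are. All 18 alternative log2 ratios of the members stayed below 0 and uncalled at the 2-fold rule, with Mir107 between -0.42 and -0.12, Mir103-2 between -0.54 and -0.23 and Mir103-1 between -1.29 and -0.99. The adjusted p ranged from 2.56e-67 to 1 for Mir107, from 0.138 to 1 for Mir103-2 and from 0.277 to 1 for Mir103-1 (exact binomial test, or edgeR's exactTest for the highest).

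Scaled to all reads in place of the gene sum, the mean CPM levels were 797 for Mir107, 5.45 for Mir103-2 and 0.499 for Mir103-1. Unmapped, multimapping and unassigned reads all enter that total. Calls over all genes in the main comparison were 87 of 495 (19 higher, 68 lower). With edgeR's exactTest they were 3 of 495 (1 higher, 2 lower). At a mean of 10 CPM or more, where fewer genes were tested, they were 53 of 310 (14 higher, 39 lower). At 1.5-fold they were 141 of 495 (40 higher, 101 lower). The split was 24 higher and 57 lower with edgeR's TMM factors and 27 and 48 with DESeq2's size factors. The metabolic list took 1.87% of the unstranded counts, against 2.03% of the sense counts, as Mir378a reads 0 there. With windows of 18 bases, 81.4% were found in no other hairpin for Mir107, 76.8% for Mir103-1 and 68.1% for Mir103-2.

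Genome matches could not be counted without a genome, so windows were counted among hairpins. With 4 and 5 counts, the depth sets no direction for Mir103-1 between the libraries.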
